A study of Mus musculus with 9 samples.

Results

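The genes studied here encode 9 subunits of the Polycomb complexes, which are Ezh1, Ezh2, Eed, Suz12, Jarid2, Mtf2, Cbx2, Cbx7 and Cbx8. A gene was taken where a probe set of the array carried exactly 1 gene symbol and that symbol was in this list, and the brightest probe set stood for the gene. All 9 genes were found, among 19938 named genes in all. Only Eed had a second probe set. RNA came from 9 cultures of mouse cells in 3 groups of 3 arrays. MEF were embryonic fibroblasts at a passage below 3, R1 was an embryonic stem cell line, and the iPS cells, called inducible in the labels, had been made from such MEF by returning somatic cells to a pluripotent state. The submitters describe R1 and MEF as the reference groups for iPS cells and the arrays of each line as biological repeats. The sources used here do not give the strain, the reprogramming factors, the culture medium or any feeder cells, nor whether the iPS cells were 1 clone. No agent or genotype is named for any group.

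Polycomb proteins keep developmental genes silent through chromatin. Polycomb repressive complex 2 (PRC2) methylates lysine 27 of histone H3. Its catalytic subunit is Ezh2 or the related Ezh1, and Eed and Suz12 are required for its activity. Jarid2 and Mtf2 belong to alternative forms of PRC2 and help to bring it to its sites. Polycomb repressive complex 1 (PRC1) ubiquitinates histone H2A, and in its canonical forms a CBX protein binds the methyl mark that PRC2 leaves. Cbx7 is known as the main CBX protein of embryonic stem cells, whereas Cbx2 and Cbx8 are known for roles in differentiating cells. In fibroblasts, Polycomb is best known for restraining the Ink4 locus of cell cycle inhibitors.

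The identity of the cultures was checked with marker genes. All 8 pluripotency markers rose in both pluripotent lines against MEF, and 7 of the 8 had a mean signal under 64 in MEF. Their summed signal was 350.4 to 445 in MEF, 34273 to 35625 in R1 and 28590 to 29968 in iPS arrays. The 10 fibroblast markers summed to 35030 to 40572 in MEF, 2408 to 3556 in R1 and 3457 to 4286 in iPS arrays, and none had a mean under 64 in any group. The 8 skeletal muscle markers summed to 6728 to 8217 in MEF and to at most 1037 in the pluripotent lines. The 7 macrophage markers summed to 270.5 to 310.7 in MEF, 459.1 to 483.8 in R1 and 414.2 to 432.9 in iPS arrays, with 6 of the 7 (all but Cd68) under a mean of 64 in each group. Cd68 rose (1.12 in iPS and 1.36 in R1). The 7 endothelial markers summed to 379.2 to 435.7 in MEF, 616.9 to 669.1 in R1 and 516.5 to 620.3 in iPS arrays, where Pecam1, also known from pluripotent cells, rose (1.82 and 2.07) and Emcn fell (-1.04 and -1.08). The 6 extraembryonic endoderm markers summed to 1609 to 1689 in MEF and to 484.4 to 694.9 in the pluripotent lines. Of these, Dab2 fell in both lines (-3.00 in iPS and -2.41 in R1) and Gata6 in iPS alone (-1.08, and -0.69 in R1). Sox7 (0.285 and 0.304), Sox17 (0.197 and 0.328), Gata4 (0.003 and 0.172) and Afp (0.02 and 0.075) were above 0 and not called. No value can be read as absence, since the lowest signal in the deposited table is 4. The part of muscle or residual fibroblast RNA in the results below was not tested, and in whole cultures fewer cells of a type and less RNA per cell cannot be told apart.

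Most of the 9 subunit genes were higher in pluripotent cells, with the widest difference in the accessory PRC2 subunit Jarid2. In iPS cells against MEF, 6 of the 9 genes rose and 0 fell, and the same 6 rose in R1 against MEF. They were Ezh1, Eed, Suz12, Jarid2, Mtf2 and Cbx7. Rose and fell are used for an adjusted p under 0.05 in limma together with a difference of at least 1 in log2(signal + 16), a 2-fold change of bright genes. Over all genes, 5.08% rose and 7.58% fell in iPS cells, and 5.56% rose and 7.94% fell in R1 cells. By the adjusted p alone, 8 of the 9 genes passed in each comparison, against 48.0% (iPS) and 48.9% (R1) of all genes, with Cbx8 as the 1 gene below 0. Where a pair of differences is given below, iPS against MEF comes before R1 against MEF. The median difference of the 9 genes was 1.46 in iPS and 1.47 in R1 cells, and the corresponding medians over all genes were 0.02 (iPS) and 0.02 (R1). The arrays of MEF and of the pluripotent line did not overlap for 8 of the 9 genes in either comparison, against 52.3% of all genes for iPS and 54.4% for R1. Both comparisons use the same MEF arrays and are therefore not independent of each other.

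**Figure D1:**
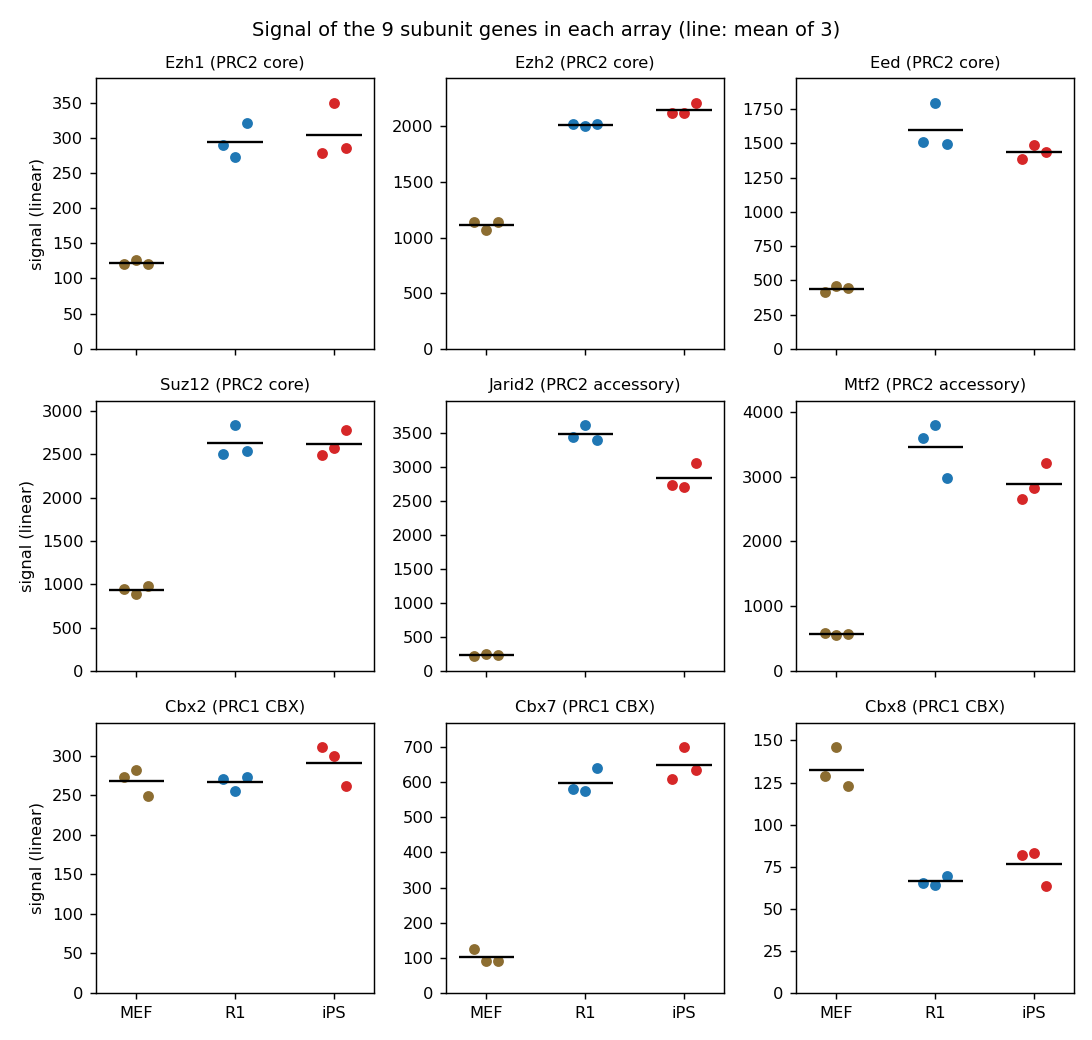
Signal of each of the 9 genes (linear scale from 0, a separate axis per gene) in the 3 MEF, 3 R1 and 3 iPS arrays, with a line at the group mean. For Jarid2 the MEF arrays lie at 223 to 251 and the R1 and iPS arrays at 2702 and above, while the Cbx2 arrays of all groups lie between 249 and 311.

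Within the core of PRC2, Eed and Suz12 had larger fitted differences from MEF than Ezh1 and Ezh2, a contrast between genes that was not tested beyond the ratio of the enzymes given below. Eed, which binds trimethylated H3 lysine 27 and stimulates the enzyme, had signals of 413, 458 and 446 in MEF, 1510, 1795 and 1499 in R1 and 1389, 1489 and 1438 in iPS arrays. All 6 pluripotent arrays thus lay far above the MEF arrays, and every iPS array lay below every R1 array. It rose by 1.68 ± 0.08 (SE) in iPS (adjusted p = 6.80e-08) and by 1.83 ± 0.08 in R1 cells. The second Eed probe set was dim, with 24.1 to 33.4 in MEF and 32.5 to 41.9 in the pluripotent lines. Averaging both probe sets lowered the iPS difference to 0.97, which was no longer called, and the R1 difference to 1.05, which was.

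Suz12, the subunit around which the complex is assembled, had signals of 949, 891 and 976 in MEF, 2504, 2837 and 2539 in R1 and 2487, 2574 and 2778 in iPS arrays. The groups were as clearly separated as for Eed, and the R1 and iPS arrays overlapped each other. Suz12 rose by 1.46 ± 0.07 in iPS (adjusted p = 7.20e-08) and by 1.47 ± 0.07 in R1 cells (adjusted p = 5.92e-08).

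The catalytic subunits Ezh1 and Ezh2 are alternatives to each other in the complex, and Ezh2 is usually associated with dividing cells. Ezh1 had signals of 121, 126 and 120 in MEF, 290, 272 and 322 in R1 and 278, 350 and 286 in iPS arrays. It was higher in every pluripotent array and rose by 1.20 ± 0.09 in iPS (adjusted p = 1.69e-06) and by 1.16 ± 0.09 in R1 cells (adjusted p = 1.99e-06). These 2 calls were lost with a pseudocount of 64 (0.98 and 0.94) and when tested against a difference of 1 (adjusted p = 0.234 and 0.439).

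Ezh2 had signals of 1136, 1067 and 1136 in MEF, 2020, 2006 and 2020 in R1 and 2120, 2120 and 2210 in iPS arrays. The MEF arrays were the lowest without overlap, and the spread within a group was small, with a coefficient of variation of 0.4% in R1. The deposited signals correspond to log2 values of 2 decimals, so a spread as small as that in R1 was not resolved. Its differences of 0.94 ± 0.04 in iPS (adjusted p = 8.46e-08) and 0.85 ± 0.04 in R1 (adjusted p = 1.42e-07) passed the test of p and stayed under the required size of 1. The 95% intervals were 0.84 to 1.04 and 0.75 to 0.95.

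Both accessory subunits rose. Jarid2 had the widest difference of the 9 genes in either line, and Mtf2 lay below Cbx7 in iPS and above it in R1 cells. Jarid2, a catalytically inactive member of the Jumonji family that binds PRC2, had signals of 223, 251 and 232 in MEF, 3444, 3616 and 3397 in R1 and 2740, 2702 and 3061 in iPS arrays. Its mean was 12 times the MEF mean in iPS and 14.8 times in R1 cells. It rose by 3.50 ± 0.06 in iPS (adjusted p = 5.04e-10) and by 3.80 ± 0.06 in R1 (adjusted p = 3.41e-10). Among the 19938 genes this was the 56th largest increase in iPS and the 45th largest in R1 cells.

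Mtf2, also called Pcl2, a Tudor-domain protein that binds DNA rich in CpG, had signals of 584, 553 and 572 in MEF, 3591, 3795 and 2978 in R1 and 2647, 2817 and 3214 in iPS arrays. The R1 and iPS arrays overlapped, and both lay far above MEF. Mtf2 rose by 2.31 ± 0.10 in iPS (adjusted p = 4.54e-08) and by 2.56 ± 0.10 in R1 cells (adjusted p = 2.07e-08), which ranked 182 and 142 among increases.

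The CBX genes did not move together. Cbx7 had signals of 125, 91.1 and 91.1 in MEF, 580, 576 and 639 in R1 and 609, 699 and 635 in iPS arrays. It was high in all pluripotent arrays and rose by 2.50 ± 0.11 in iPS (adjusted p = 5.36e-08) and by 2.38 ± 0.11 in R1 (adjusted p = 6.04e-08).

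Cbx2 had signals of 272, 282 and 249 in MEF, 271, 256 and 272 in R1 and 311, 300 and 261 in iPS arrays. These ranges overlapped in every comparison. The differences from MEF were 0.11 (95% interval -0.05 to 0.27) in iPS and -0.01 (-0.17 to 0.15) in R1 cells. The sign of the R1 value turned under quantile normalization (0.07) and array weights (0.06).

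Cbx8 was the only gene of the 9 with its highest signals in MEF, at 129, 146 and 123, against 65.3, 64 and 69.6 in R1 and 82.1, 83.3 and 63.6 in iPS arrays. The groups did not overlap with MEF. The differences of -0.69 ± 0.09 in iPS (adjusted p = 0.000119) and -0.85 ± 0.09 in R1 (adjusted p = 2.55e-05) stayed short of the required size. The pluripotent signals lay near the median of an array, which was 78.2 to 83.3, and a constant of 16 understates such differences.

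**Figure D2:**
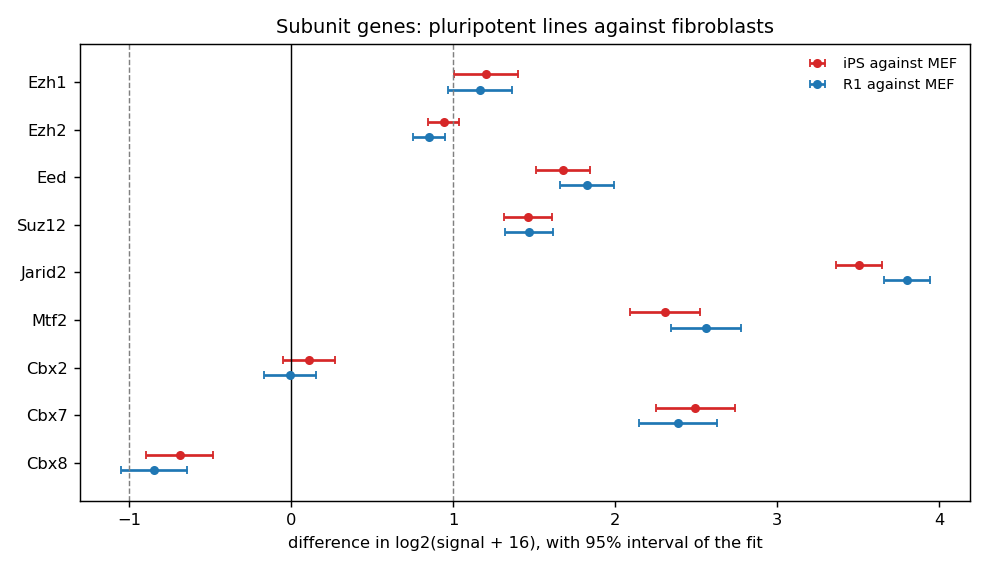
Difference in log2(signal + 16) from MEF for each of the 9 genes, in iPS (red) and R1 cells (blue), with the 95% interval of the fit and dashed lines at -1 and 1. Jarid2 lies farthest right at 3.50 and 3.80, Cbx2 straddles 0 and Cbx8 lies at -0.69 and -0.85.

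Pairs of subunits that can occupy the same place, or belong to alternative forms of a complex, were compared by the ratio of their signals. The levels of 2 probe sets cannot be compared with each other, so only the shift of their log2 ratio between groups was read. Cbx7 over Cbx8 was -0.04, -0.60 and -0.37 in MEF, 2.87, 2.89 and 2.94 in R1 and 2.67, 2.85 and 3.03 in iPS arrays, a shift of 3.19 in iPS and 3.23 in R1 against MEF. Cbx7 over Cbx2 shifted by 2.38 and 2.39. Mtf2 over Jarid2 was 1.33, 1.09 and 1.24 in MEF and between -0.19 and 0.07 in the 6 pluripotent arrays, a shift of -1.20 (iPS) and -1.24 (R1).

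The smallest of the shifts was that of Ezh2 over Ezh1, from 3.07, 2.93 and 3.08 in MEF to 2.73, 2.81 and 2.59 in R1 and 2.86, 2.55 and 2.88 in iPS arrays, a shift of -0.26 in iPS and -0.32 in R1. With the constant of 16 this ratio was thus lower in each pluripotent array than in each MEF array. That separation depended on the constant. With a pseudocount of 64, Ezh2 differed from MEF by 0.91 in iPS and 0.82 in R1, and Ezh1 by 0.98 and 0.94. The shift was then smaller, and the groups overlapped. For the 8 shifts of the 4 ratios against MEF, the groups did not overlap with the constant of 16. A two-sided exact permutation test gave p = 0.1 for each, the smallest that 3 against 3 arrays allow (0.15 adjusted over 12 tests). Between iPS and R1 the 4 ratios differed by at most 0.05 in size, with exact p of 0.6 to 0.9 (0.8 to 0.9 adjusted).

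**Figure D3:**
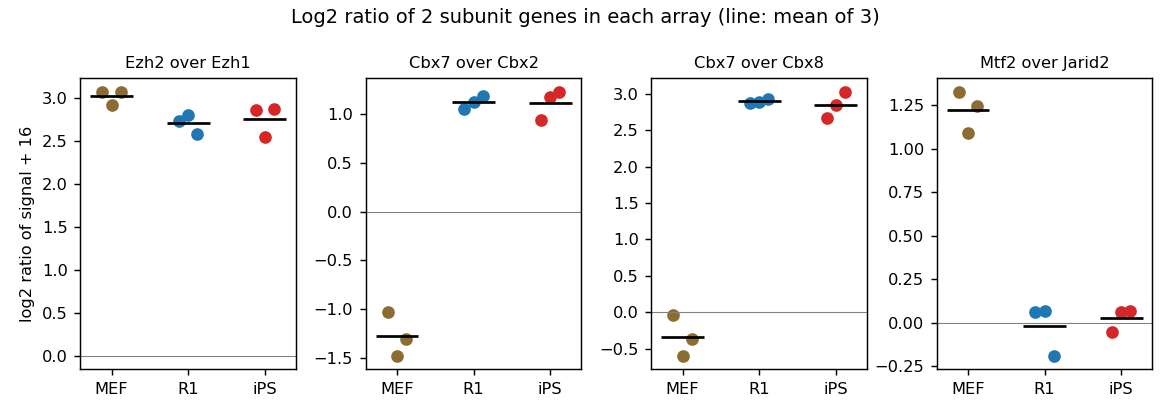
Log2 ratio of signal + 16 for 4 pairs of subunit genes in each of the 9 arrays, with a line at the group mean and a separate axis per pair. In each pair the 3 MEF arrays do not overlap the 6 pluripotent arrays, which for Ezh2 over Ezh1 depended on the constant of 16. The group means differ from MEF by 3.19 to 3.23 for Cbx7 over Cbx8 and by -0.26 to -0.32 for Ezh2 over Ezh1.

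Between iPS and R1 cells the differences of the 9 genes lay between -0.30 and 0.16. In limma 0 of the 9 were called, against 0.461% of all genes (0.296% higher and 0.166% lower in iPS). At an unadjusted p under 0.05, 2 of the 9 passed, both lower in iPS cells, against 20.6% of all genes. By the adjusted p alone Jarid2 passed, as did 8.52% of all genes. Jarid2 was lower in each iPS array (2702 to 3061) than in each R1 array (3397 to 3616), a difference of -0.30 ± 0.06 (adjusted p = 0.0200; 95% interval -0.44 to -0.16). The iPS mean was 0.813 of the R1 mean.

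Mtf2 differed in the same direction by -0.25 (95% interval -0.47 to -0.03), with overlapping arrays and an adjusted p of 0.167. Eed differed by -0.15 (-0.32 to 0.02) and Ezh2 by 0.09 (-0.005 to 0.19), in both cases without overlap of the arrays, which held for 3 of the 9 genes with Jarid2 and for 21.9% of all genes. Neither passed the test (adjusted p = 0.316 and 0.276).

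The remaining genes had overlapping arrays. The difference was 0.04 (-0.16 to 0.24) for Ezh1 and -0.01 (-0.15 to 0.14) for Suz12. It was 0.12 (-0.04 to 0.28) for Cbx2, 0.11 (-0.13 to 0.35) for Cbx7 and 0.16 (-0.05 to 0.36) for Cbx8. Over the 9 genes the intervals reached from -0.47 (Mtf2) to 0.36 (Cbx8). Thus for Ezh1, Eed, Suz12, Jarid2, Mtf2 and Cbx7 the order of levels was MEF lowest, followed by the pluripotent lines, whose order passed the test for Jarid2 alone. Ezh2 also had MEF lowest and Cbx8 had the opposite order, both short of the required size.

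**Figure D4:**
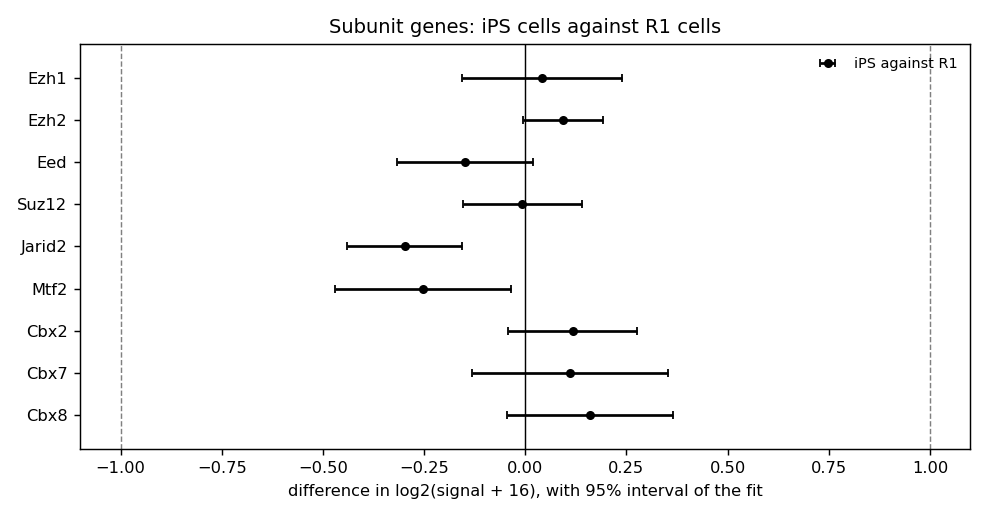
Difference in log2(signal + 16) between iPS and R1 cells for each of the 9 genes, with the 95% interval of the fit and dashed lines at -1 and 1. All points lie between -0.30 (Jarid2) and 0.16 (Cbx8), and the intervals of Jarid2 and Mtf2 do not reach 0.

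Promoter sequences of the genes were read beside their expression. RefSeq starts of build GRCm38.p6 were listed for 8 of the 9 genes, with 10 starts in all. The 250 bases before a start held between 2 and 37 CG dinucleotides. The median over 32851 RefSeq starts was 6, and among the 10 starts only the second one of Mtf2, with 2, lay below it. The promoters of Jarid2 and Cbx7, with the widest differences in PRC2 and among the CBX genes, and of the alternative enzymes Ezh1 and Ezh2 are given below. They are the 250 bases before the start on the strand of the gene, at chr13:44730524-44730773 (plus strand, the upstream one of 2 starts), chr15:79932647-79932896 (minus), chr11:101226464-101226713 (minus) and chr6:47595031-47595280 (minus). Capitals mark the letters CCAAT and GGGCGG on either strand, which are the core of the CCAAT box and of the GC box.
Jarid2: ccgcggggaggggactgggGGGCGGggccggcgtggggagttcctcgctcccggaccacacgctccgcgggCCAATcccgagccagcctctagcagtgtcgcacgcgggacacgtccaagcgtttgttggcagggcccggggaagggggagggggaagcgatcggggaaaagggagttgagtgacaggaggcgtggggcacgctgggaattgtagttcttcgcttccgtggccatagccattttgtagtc
Cbx7: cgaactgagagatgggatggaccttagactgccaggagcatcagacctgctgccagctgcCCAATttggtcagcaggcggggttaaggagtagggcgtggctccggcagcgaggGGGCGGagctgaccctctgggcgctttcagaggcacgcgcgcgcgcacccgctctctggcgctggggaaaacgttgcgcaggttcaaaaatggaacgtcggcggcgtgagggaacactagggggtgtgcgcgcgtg
Ezh1: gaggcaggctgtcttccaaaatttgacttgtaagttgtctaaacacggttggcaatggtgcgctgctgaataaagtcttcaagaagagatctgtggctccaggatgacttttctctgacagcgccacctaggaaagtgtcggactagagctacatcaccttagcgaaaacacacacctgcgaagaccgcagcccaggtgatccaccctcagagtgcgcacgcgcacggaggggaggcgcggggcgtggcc
Ezh2: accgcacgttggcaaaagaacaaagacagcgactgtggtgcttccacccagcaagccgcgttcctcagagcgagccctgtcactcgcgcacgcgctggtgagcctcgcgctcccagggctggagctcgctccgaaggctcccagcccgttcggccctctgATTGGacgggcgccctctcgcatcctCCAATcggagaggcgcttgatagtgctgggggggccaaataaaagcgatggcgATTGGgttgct

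The promoters of Jarid2 and Cbx7 each held 23 CG dinucleotides, 1 CCAAT and 1 GGGCGG. That of Ezh2 held 23 CG and 3 CCAAT, and that of Ezh1 held 14 CG and neither motif. CCAAT occurred in 6 of the 10 starts of the Polycomb genes and in 33.8% of all starts, and GGGCGG in 6 of 10 and 32.7%. The shares over all starts were not matched for CG content, and both starts of Jarid2 are among those with GGGCGG. Cbx8, which did not rise, held 2 CCAAT and 1 GGGCGG. The octamer core TTTGCAT was found at 1 start (the downstream one of Mtf2) and in 4.12% of all starts. An E2F-like motif (TT, then C or G at each of the next 2 bases, then CGC, on either strand) was found at 1 start (Suz12) and in 7.89% of all starts. Eed, which rose, held neither CCAAT nor GGGCGG. These matches describe letters in a window and not binding.

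Other genes of the Polycomb pathway were read from a list of 40, of which 38 were measured. In iPS against MEF 10 rose and 2 fell, and in R1 12 rose and 2 fell. Their median difference was 0.21 in iPS and 0.035 in R1 cells, and over all genes 12.7% (iPS) and 13.5% (R1) were called in either direction. By direction, 5.08% of all genes rose and 7.58% fell in iPS, and 5.56% rose and 7.94% fell in R1 cells. Genes of the list were thus called both ways, but the 2 of 38 that fell were not above the share over all genes. The 2 genes called in R1 alone were Asxl1 (1.16 in R1, 0.82 in iPS) and the H3 lysine 27 demethylase Kdm6a (1.122 and 0.99). Their difference between iPS and R1 was -0.34 (adjusted p = 0.0476) for Asxl1 and -0.13 (adjusted p = 0.557) for Kdm6a. Kdm6a was called in iPS too without MEF replicate 3 (1.04), iPS replicate 1 (1.06) or iPS replicate 2 (1.01). Both R1 calls were lost when tested against a difference of 1 (adjusted p = 0.459 for Asxl1). The R1 call of Kdm6a was also lost with a pseudocount of 64 (0.999).

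Of 7 PRC2 partners only Epop rose. Epop, which binds PRC2 next to Mtf2 and links it to elongin, had signals of 443, 388 and 393 in MEF, 1176, 1342 and 1176 in R1 and 1489, 1629 and 1563 in iPS arrays, and rose by 1.90 ± 0.07 in iPS and 1.56 ± 0.07 in R1 cells. The histone chaperone subunits showed far smaller differences, with 0.51 (iPS) and 0.45 (R1) for Rbbp4 and 0.13 and -0.07 for Rbbp7. Phf1 and Phf19, the paralogues of Mtf2, differed by 0.01 and -0.20 in iPS and by 0.015 and -0.19 in R1 cells. The rise within this family was called for Mtf2 alone.

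In canonical PRC1, Phc1 had signals of 229, 249 and 246 in MEF, 2195, 1965 and 2091 in R1 and 1618, 1885 and 2210 in iPS arrays. Phc1, a sterile alpha motif protein that polymerises and compacts PRC1-bound chromatin, rose by 2.89 ± 0.10 and 3.03 ± 0.10. Its paralogues Phc2 (-0.55 and -0.61) and Phc3 (-0.95 and -0.805) were lower and not called, though Phc3 was called with its probe sets averaged (-1.21 and -1.04).

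The ring-finger partners of the catalytic subunit also diverged. Bmi1 (Pcgf4), known for repression of the Ink4 locus, had signals of 422, 440 and 488 in MEF, 154, 177 and 140 in R1 and 151, 170 and 164 in iPS arrays. It fell in both lines (-1.39 and -1.43), whereas its paralogue Pcgf2 (Mel18) rose by 1.20 and 1.29. The iPS call of Pcgf2 was lost when tested against a difference of 1 (adjusted p = 0.113). Of the catalytic subunits, Rnf2 (Ring1B) differed by 0.70 and 0.95 and Ring1 by -0.04 and -0.04. Neither was called. Rnf2 was called in R1 without R1 replicate 3 (1.01).

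Among 13 partners of variant PRC1, which lacks CBX proteins, 5 rose and 1 fell in either line. L3mbtl2, a reader of modified histones, rose by 2.04 ± 0.09 in iPS and 2.08 ± 0.09 in R1. Pcgf6, its partner in the PRC1.6 form, had signals of 202, 237 and 228 in MEF, 755, 771 and 765 in R1 and 867, 832 and 936 in iPS arrays, and rose by 1.91 and 1.71. The DNA-binding subunit Mga of the same form rose by 1.49 and 1.54, while E2f6 differed by -0.73 and -0.74 without being called.

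Rybp and Yaf2 are alternative stimulatory subunits of variant PRC1. Rybp rose by 1.41 ± 0.09 in iPS and 1.51 ± 0.09 in R1, and Yaf2 fell in both (-1.46 and -1.56). Yaf2 had signals of 449, 422 and 474 in MEF, 125, 169 and 132 in R1 and 169, 133 and 159 in iPS arrays. Kdm2b, which recruits PRC1.1 to unmethylated CpG islands, rose by 1.38 and 1.48. Its partners Bcor (0.21 and -0.04) and Pcgf1 (-0.03 and -0.08) were not called.

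Of 8 genes that remove the Polycomb marks, Asxl2, a cofactor of the H2A deubiquitinase Bap1, rose by 1.05 and 1.17. The iPS call was lost without iPS replicate 3 (0.97), with a pseudocount of 64 (0.954) and when tested against a difference of 1. The R1 call was lost in that last test too (adjusted p = 0.231). The Y-linked Uty rose by 2.55 ± 0.10 in iPS and 1.16 ± 0.10 in R1, and was the only partner called between iPS and R1 (1.39 ± 0.10, adjusted p = 6.06e-05, against 0.461% of all genes). Its signals were 119, 144 and 139 in MEF, 320, 352 and 288 in R1 and 798, 838 and 949 in iPS arrays. The sources used here do not state the sex of the embryos behind each line, and its part in this result was not tested. With a pseudocount of 64 the R1 call was lost (0.96). Without R1 replicate 2 a second partner, the PRC1-associated Scmh1, was also called between iPS and R1 (1.03).

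A list of 30 textbook Polycomb targets, of which 28 were measured, held genes called in both directions. In iPS against MEF 3 rose and 7 fell, and in R1 2 rose and 6 fell, with medians of -0.15 and -0.14. Over all genes 5.08% rose and 7.58% fell in iPS and 5.56% rose and 7.94% fell in R1 cells. By sign alone 13 of the 28 targets were above 0 in each comparison. Of all 19938 genes, 10842 were above 0 in iPS and 11257 in R1 against MEF. Between iPS and R1 0 targets were called in limma, and 10 of the 28 had an unadjusted p under 0.05, against 20.6% of all genes. Of the Ink4 locus, Cdkn2b (p15) had signals of 471, 516 and 481 in MEF, 151, 151 and 169 in R1 and 206, 206 and 169 in iPS arrays, with differences of -1.27 and -1.55, and fell in both lines. Cdkn2a, for p16 and Arf, lay between 96.3 and 112 in all arrays and differed by 0.05 and 0.02. These signals lay not far above the array medians of 78.2 to 83.3, so equal expression in the groups cannot be read from them.

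Tbx15 (-3.35 and -3.67), Prrx1 (-3.07 and -3.60), Meis1 (-2.55 and -2.70) and Twist1 (-2.16 and -2.47) fell in both lines. Prrx1 had signals of 2998, 3019 and 2957 in MEF, 215, 292 and 198 in R1 and 360, 320 and 345 in iPS arrays. Since fibroblast markers fell in the same arrays, the part of cell identity in these differences was not tested. Eomes (2.29 and 1.52) and Tbx3 (1.34 and 1.67), both also expressed in early embryonic cells, rose in both lines. Eomes was uneven in iPS cells, with 407, 194 and 202 against 128, 151 and 146 in R1 and 50.6, 38.9 and 29.2 in MEF arrays, and its R1 call was lost with a pseudocount of 64 (0.99). The iPS call of Tbx3 was lost when tested against a difference of 1 (adjusted p = 0.281). Olig2, a neural regulator, rose in iPS (1.11) and differed by 0.13 in R1. Its iPS call was lost without iPS replicate 2 (0.99), with a pseudocount of 64 (0.75) and when tested against a difference of 1. Olig2 differed by 0.98 between the lines (adjusted p = 0.000834), which reached a call without R1 replicate 3 (1.003) or iPS replicate 1 (1.101).

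Genes of S phase and mitosis were examined beside the subunits. Of 17 measured proliferation genes 6 rose in iPS and 5 in R1 cells, against 5.08% and 5.56% of all genes, with medians of 0.51 and 0.56. In limma 0 fell, and 1 was lower in each at an unadjusted p under 0.05, as were 24.8% (iPS) and 24.5% (R1) of all genes. The replication factors Mcm2 (1.16 and 1.14), Mcm3 (1.19 and 1.21), Mcm5 (1.20 and 1.28) and Cdt1 (1.44 and 1.65) rose, while Mki67 differed by -0.23 and -0.10 and Cdk1 by -0.003 and -0.34 (adjusted p = 0.00152 in R1), none of them called. The summed signal of the list was 18564 to 19274 in MEF, 29416 to 31052 in R1 and 28628 to 30996 in iPS arrays. The part of proliferation in the differences of the subunits was not tested.

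The genes with the profile most like each subunit were found by the root mean square difference of log2(signal + 16), centred per gene, over the 9 arrays. Ezh2 lay closest to the replication helicase subunit Mcm6 (0.04), whose differences from MEF were 0.87 in iPS and 0.81 in R1, and to Snx5 (0.05). Ezh1 lay closest to the mismatch repair gene Pms1 (0.05) and Ccdc18 (0.06). Eed lay closest to Ulk1 (0.07) and the replication origin factor Orc1 (0.09), and Suz12 to Senp3 (0.07) and Exosc5 (0.08).

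Among the genes with wider differences, Jarid2 lay closest to Hook1 (0.10) and Rimklb (0.12), Mtf2 to Zfp518a (0.11) and the mismatch repair gene Msh6 (0.11), and Cbx7 to Sh3gl2 (0.14) and the desmosomal cadherin Dsg2 (0.15). Cbx8 lay closest to Rgs19 (0.06) and Nynrin (0.06), and Cbx2, whose profile is nearly flat, to Ccl19 (0.04), whose signal is uncertain because near-identical gene copies exist, and to Slc29a2 (0.05). Within the 9 genes the closest pairs were Eed with Suz12 (0.16), Ezh1 with Ezh2 (0.18) and Ezh1 with Suz12 (0.19), and the farthest was Jarid2 with Cbx8 (2.10).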

How the data were processed

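RNA of 9 mouse samples was measured on Affymetrix whole-transcript arrays, with Trizol extraction and whole-transcript kits per the labels' protocols. The authors deposited linear intensity values per probe set. GCOS 1.4 appears in the submitters' processing notes with no step attached, and no source used here gives the background correction, the summarization, the normalization or the genome build. Array medians were close (78.2 to 83.3), so the intensity values were not normalized again.

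Of 35557 probe sets, 21789 carried 1 gene symbol, 1621 several and 12147 were not listed in the annotation. Entrez identifiers of 21698 were found in a RefSeq table of GRCm38.p6, which changed 0 symbols. The brightest probe set per gene was kept, which left 19938 genes. All 9 arrays were fitted together on log2(signal + 16), each group having its own mean (limma 3.58.1, R 4.3.3, lmFit and eBayes, 6 residual degrees of freedom), with p-values adjusted by Benjamini-Hochberg over all genes. These p-values measure the spread between 3 arrays per group, which limits precision and may be partly technical. The fit was tested on simulated data.

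Named were all 9 subunits, up to 4 called genes per role of the partner and target lists and comparison, core partners whether called or not, and 2 nearest genes per subunit. Other partners, targets and proliferation genes named in the text were chosen after their values were seen. The subunits and lists were chosen with earlier results of these data known. Alternatives covered pseudocount, normalization, dim genes, probe sets, call rule, trend, array weights, replicate block, arrays in the fit and leaving out each array.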

Additional observations from a re-analysis of the deposited data

Results flagged for a closer look

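Between iPS and R1 cells, the difference from MEF was itself unequal for 11 of the subunit, partner and target genes at an adjusted p under 0.05 (limma), among them 5 partners and 5 targets. The subunit was Jarid2 (-0.30 in iPS minus R1). The partners were Epop (0.34), Scmh1 (0.91), Bcor (0.25), Asxl1 (-0.34) and Uty (1.39). The targets were Gata6 (-0.38), Pax6 (-0.43), Tbx15 (0.32), Olig2 (0.98) and Prrx1 (0.53). Over all genes, 8.52% passed the same threshold.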

How the results depend on the processing

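The 6 subunit calls against MEF were kept without any 1 array (6 to 6 in both comparisons), and the replicate block gave 6 and 6. Not every same-numbered pair of arrays deviated together (correlations of -0.08 to 0.25), so the numbers were not taken as pairs. The arrays numbered 1 had correlations of 0.21 to 0.245 with each other. MEF 2, R1 2 and iPS 3 had 0.193 to 0.198, which a block by number does not follow. The origin of this was not tested. The block by number called 2691 genes in R1 and 2524 in iPS against MEF. Between iPS and R1, 0 subunits were called without any 1 array. Without a minimum difference the counts were 1 subunit in iPS against R1, for partners 31 in iPS against MEF, 28 in R1 against MEF and 5 in iPS against R1, and for targets 19, 17 and 5. Tested against a difference of 1, 0 partners were called in iPS against R1. Without 1 array, partners called were 11 to 13 in iPS against MEF, 14 to 15 in R1 against MEF and 1 to 2 in iPS against R1, and targets 10 to 11, 8 to 9 and 0 to 1. Olig2 made 1 target called in iPS against R1 with a pseudocount of 1, quantile normalization or array weights. Signs turned only for differences near 0: Cbx2 in R1 against MEF (0.074 with quantile normalization, 0.056 with array weights, -0.055 to 0.03 without 1 array), Suz12 in iPS against R1 (0.013 with array weights, -0.051 to 0.05 without 1 array) and Ezh1 in iPS against R1 (-0.057 to 0.103). The ratio of Cbx7 over Cbx2 in iPS against R1 was 0.002 with a pseudocount of 64 and 0.01 with quantile normalization, and -0.064 to 0.083 without 1 array. The same range was -0.139 to 0.041 for Cbx7 over Cbx8, -0.009 to 0.16 for Ezh2 over Ezh1 and -0.038 to 0.091 for Mtf2 over Jarid2. The cause of these changes was not tested. Genes near the array median, such as Cbx8, are limited by signal over background.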
